A study of Homo sapiens with 6 samples.

Results

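The transcripts described here encode the nuclear subunits of respiratory complex I and the assembly factors that share their gene prefix. They were taken as the rows of the deposited expression table whose symbol begins with NDUFA, NDUFB, NDUFC, NDUFS or NDUFV, which gave 45 of 18806 symbols. Of these, 35 encode complex I subunits, 7 are assembly factors (prefix NDUFAF), and 3 stand apart: NDUFA4, a subunit of complex IV, its paralog NDUFA4L2, and the read-through gene NDUFC2-KCTD14. All 45 had a mean of at least 1 TPM (a length-corrected estimate of each gene's share of the transcripts in a library) and were among the 10911 genes tested. NDUFA7, NDUFA10 and the mitochondrially encoded subunits are not analysed here.

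Libraries came from Mono-Mac-6, a monocytic cell line from human acute myeloid leukaemia with the MLL-AF9 fusion. A single Cas9 clone of this line received, by lentivirus, the METTL1 guide sgMETTL1.3, the METTL1 guide sgMETTL1.6 or the control guide sgNS, so every group carries Cas9 and the same drug selection with blasticidin and hygromycin B. All 6 library names also carry the letters EV, which the labels do not explain. Cells were taken about 8 to 10 days after transduction, and each of the 3 groups has 2 poly(A) RNA sequencing libraries. METTL1 methylates tRNAs, as the catalytic part of an N7-methylguanosine writer, and the study asked how its knockout alters gene expression in leukaemia cells. All groups derive from 1 clone. The labels do not say whether replicates were separate cultures, and p-values reflect library-to-library spread alone, possibly only technical.

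Complex I oxidises NADH, passes the electrons through a flavin and a chain of iron-sulfur clusters to ubiquinone, and pumps protons across the mitochondrial inner membrane. Its N module binds NADH, its Q module reduces ubiquinone, and its proximal and distal membrane arms hold the proton pumps. A small set of core subunits does the chemistry and is shared with bacteria, while accessory subunits surround and stabilise the core. Assembly factors help to build the enzyme and are not part of the finished complex.

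The targeted transcript and the identity of the cells were examined first. METTL1 (chromosome 12, 57768471 to 57772793, minus strand) had 18.29 and 16.56 TPM in the sgMETTL1.3 libraries, 11.15 and 11.69 TPM in the sgMETTL1.6 libraries and 15.38 and 13.89 TPM in the sgNS libraries. The mRNA was above control in the libraries labelled sgMETTL1.3 (limma log2 change 0.24, adjusted p = 0.011) and below it in those labelled sgMETTL1.6 (-0.33, adjusted p = 0.0017), so transcript level does not check the knockout, for which the design text names a Western blot. Of 8 markers listed for the monocytic leukaemia line, CD33 did not pass over both guides (log2 change 0.01, adjusted p = 0.92), SPI1 rose (0.20, adjusted p = 0.00033), and LYZ (-0.14, adjusted p = 0.00019), FLT3 (-0.40, adjusted p = 3.9e-08), MPO (-0.47, adjusted p = 3.7e-07) and ITGAM (-0.64, adjusted p = 4.7e-05) fell. With the guides apart, SPI1 rose with sgMETTL1.3 (0.32, adjusted p = 2.8e-05) and did not pass with sgMETTL1.6 (0.09, adjusted p = 0.094). LYZ fell with sgMETTL1.6 (-0.24, adjusted p = 1.1e-05) and did not pass with sgMETTL1.3 (-0.045, adjusted p = 0.18). ITGAM was low, at 1.88 to 2.79 TPM in the guide libraries and 4.07 and 4.29 TPM in the sgNS libraries, and CD14 and CSF1R were under 1 TPM. Of the other markers listed, CD3E, CD3D, MS4A1 and HBB were at 0 in every library, and EPCAM and COL1A1 were under 1 TPM. KRT18 had 11.48 to 12.74 TPM in the guide libraries and 16.33 TPM in both sgNS libraries. PECAM1, which monocytes also express, had 100.05 and 98.54 TPM in the sgMETTL1.3 libraries, 71.03 and 68.59 TPM in the sgMETTL1.6 libraries and 70.66 and 73.78 TPM in the sgNS libraries. These markers moved in the same libraries as the complex I transcripts, and their part in the changes given below was not tested. Read depth cannot be recovered from TPM and is unknown. Replicates of the complex I subunits and NDUFAF factors differed by a median of 3.78% in sgMETTL1.3, 3.23% in sgMETTL1.6 and 3.88% in sgNS, and the widest replicate gap was 24.6%, for NDUFB6 in sgMETTL1.3.

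Subunit transcripts were mostly higher in METTL1-guide cells than in control cells. Over both guides together, 21 of 35 subunits rose, 3 fell and 11 did not pass (limma on log2(TPM + 1), Benjamini-Hochberg adjusted p under 0.05), against 32.6% of all genes tested that rose and 26.8% that fell (59.4% in either direction). The median log2 change of the subunits was 0.17, with a highest value of 0.58, and that of all genes tested was 0.02. All 4 guide libraries lay above both control libraries for 22 subunits, below both for 3 and overlapped with them for 10, where the shares over all genes were 32.9% above and 27.3% below. The changes were small. Of the 35 subunits, 11 rose by a log2 change of at least 0.3, as did 1321 of the 10911 genes tested. Since bulk TPM is a share of all transcripts, more of a subunit's mRNA per cell cannot be told apart from less of other mRNA.

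Added up per library, the 35 subunits made 7114 and 7198 TPM in the sgMETTL1.3 libraries, 7298 and 7473 TPM in the sgMETTL1.6 libraries, and 6315 and 6374 TPM in the sgNS libraries. Every guide library therefore held more subunit transcript than either control library. The group sum over both guides exceeded the control sum by 14.6%, and that of sgMETTL1.3 alone by 12.8% and of sgMETTL1.6 alone by 16.4%. The 7 NDUFAF factors summed to 250.7 and 253.4 TPM in sgMETTL1.3 cells, 247.7 and 261.8 TPM in sgMETTL1.6 cells, and 221.6 and 239.8 TPM in sgNS cells, 9.83% more over both guides than in control.

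**Figure D1:**
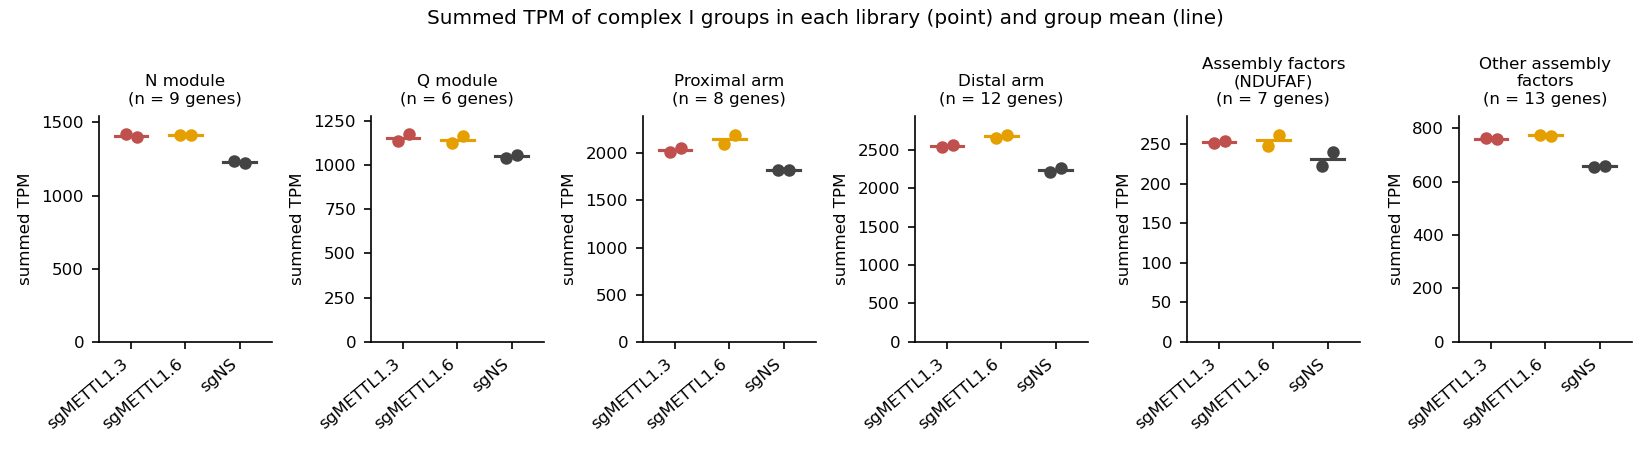
Summed TPM of complex I transcripts in each library (points) with the group mean (line), in 1 panel each for the N module, the Q module, the proximal arm, the distal arm, the NDUFAF factors and the other assembly factors, with sgMETTL1.3 and sgMETTL1.6 left of sgNS and each axis starting at 0. In every panel the 4 guide libraries lie above both control libraries, as in the distal arm at 2541 to 2698 TPM against 2220 and 2266 TPM.

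The subunits were next described by module. In the distal arm, 8 of 12 rose and 1 fell, with a median log2 change of 0.29, and in the proximal arm 5 of 8 rose and 0 fell, with a median of 0.22. In the N module 5 of 9 rose and 1 fell (median 0.14), and in the Q module 3 of 6 rose and 1 fell (median 0.09). Of the 7 nuclear core subunits 3 rose and 2 fell, with a median of 0.05. Of the 28 accessory subunits 18 rose and 1 fell, with a median of 0.24. Among all genes tested 32.6% rose and 26.8% fell, with a median of 0.02. With so few members, the core counts are near those shares. Summed TPM was higher by 7.96% for the core and by 16.8% for the accessory subunits. These differences between groups of subunits were not tested, since the groups were compared as lists.

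The subunits were also divided by annotated transcript length. The limit of 1000 bases for the median annotated coding transcript was chosen after the values were seen. This median was taken over all annotated coding transcripts of a gene. It need not be the length of the transcript that the cells express. Below it, 20 of 27 subunits rose and 1 fell (median log2 change 0.26), and at or above it 1 of 8 rose and 2 fell (median 0.03). Among all 2682 tested genes under 1000 bases, 33.7% rose and 27.3% fell, with a median of 0.02, and among the 7938 at or above it 32% rose and 26.9% fell, also with a median of 0.02. The part of length in the subunit changes was not tested.

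**Figure D2:**
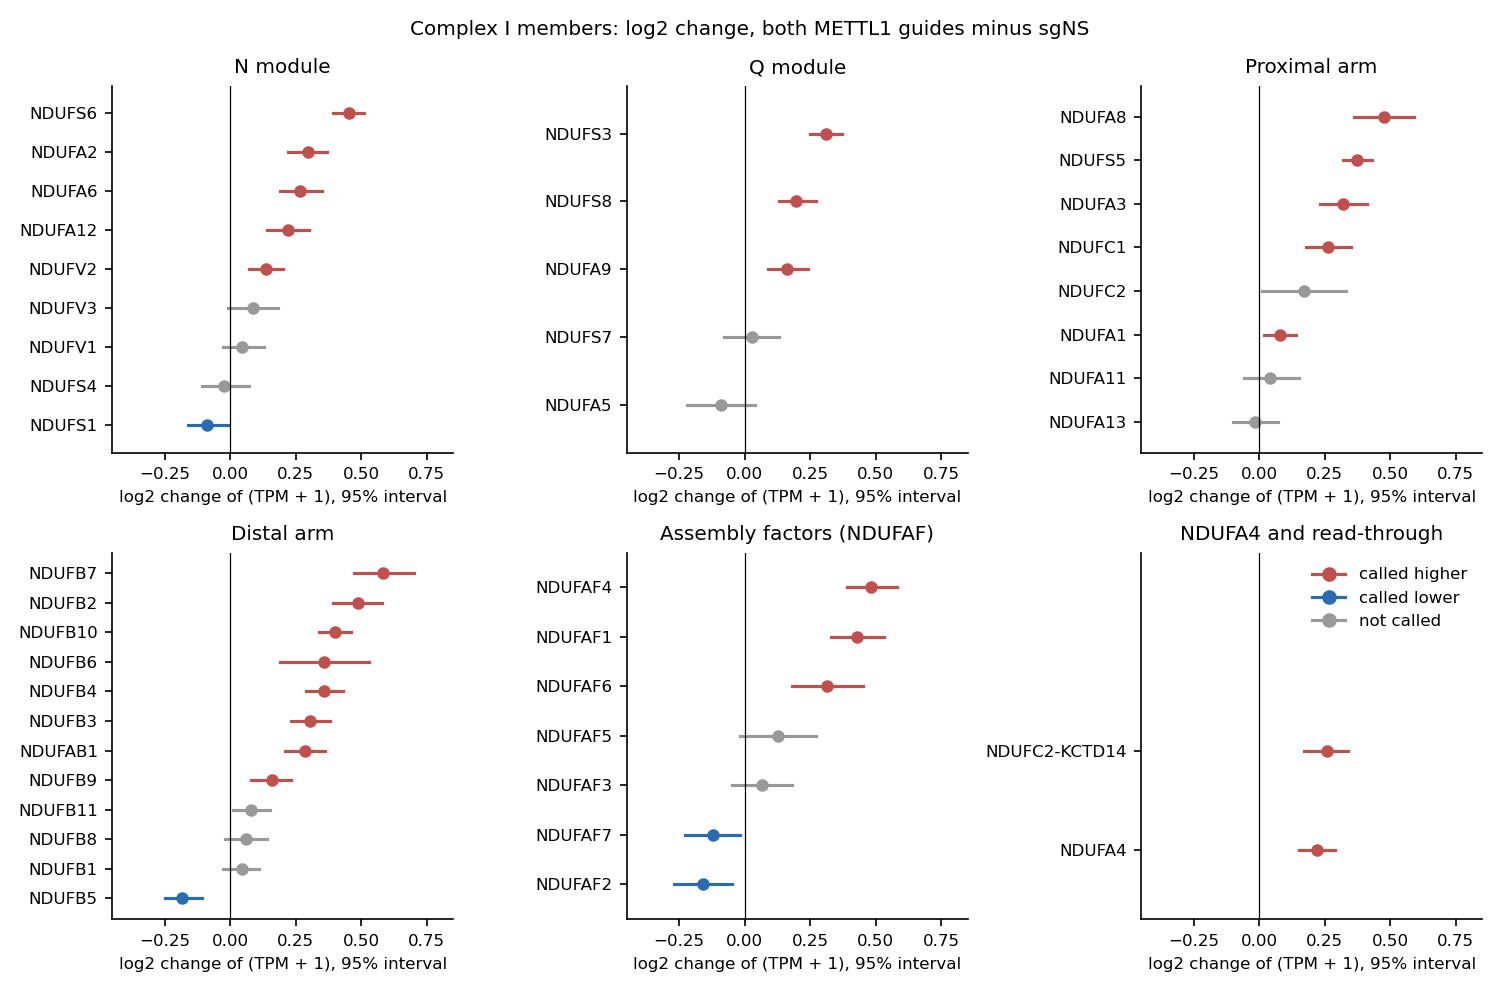
Log2 change of each complex I transcript over both METTL1 guides against sgNS (point) with its 95% confidence interval (bar), on the log2(TPM + 1) scale, with panels by module or role and colours for called higher, called lower and not called. NDUFB7 lies farthest to the right, at 0.58, 21 of the 34 subunits drawn are called higher, and NDUFA4L2, at -1.78, is not drawn.

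Promoters are shown for NDUFS6, NDUFB7 and NDUFAF4, which are among the highest changes, and for NDUFB4 and NDUFS3, which also rose, because each holds a motif of a factor known to act on respiratory genes. These sequences are from RefSeq, build GRCh38.p14, 200 bases before the start annotated by RefSeq, 5′ to 3′ on the strand of the gene. That start can differ from the GENCODE gene spans given elsewhere, and for NDUFS3 it lies well inside the span. Capitals mark GCGCATGCG, the nuclear respiratory factor 1 (NRF1) motif, in NDUFS6 and NDUFB4, and CCGGAAG, the ETS motif bound by GABPA, in the others.
NDUFS6, chr5:1801207-1801406, plus strand: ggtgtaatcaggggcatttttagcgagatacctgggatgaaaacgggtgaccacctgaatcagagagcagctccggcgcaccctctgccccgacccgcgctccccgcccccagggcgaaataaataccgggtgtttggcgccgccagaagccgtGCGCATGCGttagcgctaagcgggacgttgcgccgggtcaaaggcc
NDUFB4, chr3:120596136-120596335, plus strand: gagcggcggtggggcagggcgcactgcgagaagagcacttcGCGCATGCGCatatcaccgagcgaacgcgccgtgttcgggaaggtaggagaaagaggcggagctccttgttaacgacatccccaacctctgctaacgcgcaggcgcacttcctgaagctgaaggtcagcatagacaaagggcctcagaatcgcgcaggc
NDUFB7, chr19:14572067-14572266, minus strand: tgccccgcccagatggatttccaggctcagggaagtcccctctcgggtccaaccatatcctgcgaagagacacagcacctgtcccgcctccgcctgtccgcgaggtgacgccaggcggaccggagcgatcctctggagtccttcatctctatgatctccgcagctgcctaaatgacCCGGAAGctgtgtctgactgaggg
NDUFS3, chr11:47578874-47579073, plus strand: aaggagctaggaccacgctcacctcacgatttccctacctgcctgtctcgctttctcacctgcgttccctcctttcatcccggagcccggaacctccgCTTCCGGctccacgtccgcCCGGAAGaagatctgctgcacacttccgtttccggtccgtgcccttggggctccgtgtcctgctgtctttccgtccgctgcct
NDUFAF4, chr6:96897892-96898091, minus strand: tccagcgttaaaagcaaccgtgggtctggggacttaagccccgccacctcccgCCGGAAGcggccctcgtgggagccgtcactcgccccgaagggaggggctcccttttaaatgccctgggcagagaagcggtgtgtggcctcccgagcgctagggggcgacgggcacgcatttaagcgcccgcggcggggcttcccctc

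The motif of NDUFS6 begins 46 bases before the start and that of NDUFB4 159 bases before it, where the palindrome gives a match on each strand that overlaps the other. The ETS motif begins 24 bases before the start in NDUFB7, 147 in NDUFAF4, and 102 and 83 in NDUFS3, once on each strand. Searching 250 bases before to 50 after the start on both strands, 5 of 30 subunits with a RefSeq promoter (16.7%) held GCGCATGCG, namely NDUFA5, NDUFA8, NDUFB4, NDUFS6 and NDUFS7, where 4.55% of 8564 tested genes with a promoter did. The share was 15.8% (3 of 19) among subunits that rose and 18.2% (2 of 11) among the others. The ETS motif CCGGAAG was found in 16.7% of subunit promoters and 23.9% of all. Its share was 15.8% (3 of 19) among subunits that rose, namely NDUFA1, NDUFB7 and NDUFS3. Among the others it was 18.2% (2 of 11), namely NDUFA13 and NDUFS1. Shares in subunit promoters and in all were 26.7% and 43.8% for CCAAT (NFY) and 26.7% and 9.9% for AAGATGG (YY1). They were 6.67% and 2.56% for TGATGNAA (CARE), and 6.67% and 13.1% for CACGTG (E-box). A gene was counted where any of its listed windows held the letters, and a match is a description of the sequence only.

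Of the 8 highest changes, 6 were in accessory subunits of the membrane arms and the N module and 2 in assembly factors. NDUFB7 (chromosome 19, 14566078 to 14572062, minus strand), a distal arm subunit of the intermembrane space side, had 158.07 and 184.35 TPM in the sgMETTL1.3 libraries, 168.6 and 178.07 TPM in the sgMETTL1.6 libraries and 109.29 and 119.85 TPM in the sgNS libraries. Its guide and control libraries did not overlap, and its log2 change was 0.58 ± 0.06 (standard error), adjusted p = 1.3e-06, a fold of 1.5 on that scale. NDUFB2 (chromosome 7, 140690777 to 140722790, plus strand), a distal arm accessory subunit, had 274.23 and 290.72 TPM in the sgMETTL1.3 libraries, 252.51 and 277.28 TPM in the sgMETTL1.6 libraries and 186.54 and 202.95 TPM in the sgNS libraries. All guide libraries were above both controls, with a log2 change of 0.49 ± 0.04 (standard error), adjusted p = 8.2e-07.

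NDUFA8 (chromosome 9, 122144058 to 122159819, minus strand), a proximal arm subunit, had 44.64 and 41.91 TPM in the sgMETTL1.3 libraries, 42.7 and 48.32 TPM in the sgMETTL1.6 libraries and 31.74 and 31.43 TPM in the sgNS libraries. The groups were separate, and the log2 change was 0.48 ± 0.05 (standard error), adjusted p = 4.6e-06. NDUFB10 (chromosome 16, 1959508 to 1961975, plus strand), in the distal arm, had 280.1 and 274.26 TPM in the sgMETTL1.3 libraries, 279.84 and 280.42 TPM in the sgMETTL1.6 libraries and 209.81 and 212.2 TPM in the sgNS libraries, with a log2 change of 0.40 ± 0.03 (standard error), adjusted p = 7.3e-08. NDUFS5 (chromosome 1, 39026318 to 39034636, plus strand), in the proximal arm, had 452.38 and 452.96 TPM in the sgMETTL1.3 libraries, 470.56 and 476.19 TPM in the sgMETTL1.6 libraries and 356.27 and 358.89 TPM in the sgNS libraries, with a log2 change of 0.37 ± 0.03 (standard error), adjusted p = 5.9e-08. Together with NDUFB7, these 3 are known as the subunits of complex I with a CHCH fold of paired cysteines, which are oxidised in the intermembrane space by the CHCHD4 import pathway. This grouping was chosen after the values were seen, so the place of all 4 among the 8 highest changes is not a test of it.

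NDUFS6 (chromosome 5, 1801400 to 1816605, plus strand), the zinc-binding subunit of the N module, had 393.5 and 383.8 TPM in the sgMETTL1.3 libraries, 381.88 and 384.44 TPM in the sgMETTL1.6 libraries and 279.93 and 283.45 TPM in the sgNS libraries. The control libraries lay clearly under every guide library, with a log2 change of 0.45 ± 0.03 (standard error), adjusted p = 1.5e-08. The core subunit NDUFS3 (chromosome 11, 47565336 to 47584562, plus strand), part of the Q module and chosen for its promoter after its values were seen, had 496.39 and 514.23 TPM in the sgMETTL1.3 libraries, 507.05 and 520.97 TPM in the sgMETTL1.6 libraries and 407.48 and 413.48 TPM in the sgNS libraries, and its log2 change was 0.31 ± 0.03 (standard error), adjusted p = 6.4e-07.

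**Figure D3:**
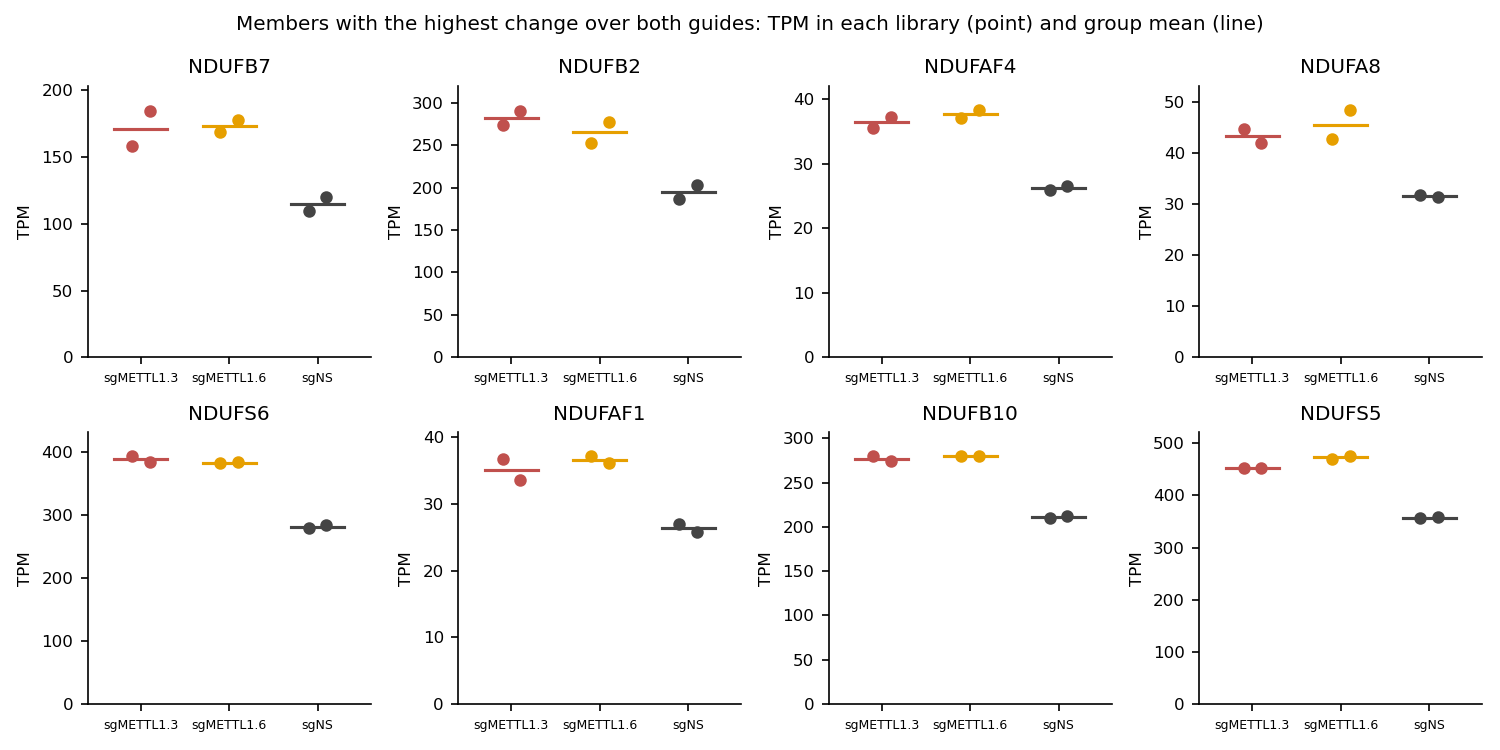
TPM in each library (points) and group mean (line) for the 8 transcripts with the highest log2 change over both guides, with sgMETTL1.3 and sgMETTL1.6 left of sgNS and each axis starting at 0. In each of the 8 panels all 4 guide libraries lie above both control libraries, as in NDUFB7 at 158.07 to 184.35 TPM against 109.29 and 119.85 TPM.

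The other 14 subunits that rose had log2 changes between 0.08 and 0.36. They included NDUFB4 at 0.36 and NDUFB3 at 0.30, both distal arm subunits, NDUFAB1 at 0.28, the mitochondrial acyl carrier protein, the Q module core subunit NDUFS8 at 0.20, and the N module core subunit NDUFV2 at 0.14. The lowest of them, NDUFA1, passed narrowly (adjusted p = 0.031) and lost its call under 8 alternatives, with log2 changes of 0.05 to 0.09 there. NDUFB9 lost its call without sgNS replicate 1, at 0.11 (adjusted p = 0.053). The 11 subunits that did not pass were NDUFA5 at -0.09, NDUFS4 at -0.02, NDUFA13 at -0.02, NDUFS7 at 0.03, NDUFA11 at 0.04, NDUFB1 at 0.04, NDUFV1 at 0.05, NDUFB8 at 0.06, NDUFB11 at 0.08, NDUFV3 at 0.09 and NDUFC2 at 0.17. NDUFA5 passed without sgNS replicate 2, at -0.21 (adjusted p = 0.021), and NDUFC2 passed without sgMETTL1.3 replicate 2 (0.23, adjusted p = 0.017) or sgMETTL1.6 replicate 1 (0.22, adjusted p = 0.016). NDUFC2 and its read-through share exons, so RSEM may divide their reads in more than 1 way. The read-through NDUFC2-KCTD14 had the larger mean over all libraries, 46.5 TPM against 10.5 TPM for NDUFC2, and rose (0.26, adjusted p = 7.8e-05). Their sum was 61.2 and 58.33 TPM in sgMETTL1.3 cells, 59.21 and 61.98 TPM in sgMETTL1.6 cells, and 50.4 and 50.74 TPM in sgNS cells.

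Pseudogenes limit some of these values. GENCODE 29 names at least 1 pseudogene after 18 of the 42 subunits and NDUFAF factors, with 12 each for NDUFB4 and NDUFA5, 6 for NDUFS5 and 5 for NDUFA3. Reads from such copies could be divided differently between genes, and their values are uncertain to that extent.

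A minority of 3 subunits fell over both guides, and NDUFB5 and NDUFS1 are described here. NDUFB5 (chromosome 3, 179604690 to 179627647, plus strand), a distal arm accessory subunit, had 189.6 and 201.09 TPM in the sgMETTL1.3 libraries, 241.03 and 234.83 TPM in the sgMETTL1.6 libraries and 246.95 and 242.74 TPM in the sgNS libraries. The sgMETTL1.6 libraries stood close to control and the sgMETTL1.3 libraries lay well below it, and the log2 change over both guides was -0.18 ± 0.03 (standard error), adjusted p = 0.00029.

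NDUFS1 (chromosome 2, 206114817 to 206159603, minus strand), the core subunit that carries several iron-sulfur clusters of the N module, had 108.82 and 106.77 TPM in the sgMETTL1.3 libraries, 99.55 and 102.8 TPM in the sgMETTL1.6 libraries and 109.18 and 112.93 TPM in the sgNS libraries. With the guides apart, the log2 change was -0.13 with sgMETTL1.6 (adjusted p = 0.012) and -0.04 with sgMETTL1.3, which did not pass (adjusted p = 0.37). The library sgMETTL1.3 replicate 1 nearly reached the control values, and the log2 change over both guides was -0.09 ± 0.03 (standard error), adjusted p = 0.039. The call was lost without either sgNS library, without either sgMETTL1.3 library and without sgMETTL1.6 replicate 1, with log2 changes of -0.11 to -0.06 (adjusted p = 0.057 to 0.28), and with no variance trend (adjusted p = 0.093).

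The deepest fall was in NDUFA4L2 (chromosome 12, 57234903 to 57240715, minus strand), a paralog of NDUFA4 that is known to be induced in hypoxia and to restrain respiration. It had 1.52 and 1.65 TPM in the sgMETTL1.3 libraries, 1.19 and 1.1 TPM in the sgMETTL1.6 libraries and 7.05 and 7.14 TPM in the sgNS libraries, so the guide libraries were all far below both controls. The ratio of the group means to sgNS was 0.223 for sgMETTL1.3 and 0.161 for sgMETTL1.6. The log2 change was -1.78 ± 0.08 (standard error), adjusted p = 1.3e-09, which understates the change of so low a gene, and was -2.31 with a pseudocount of 0.1 TPM. The gene lies 527756 bases from METTL1 on chromosome 12. NDUFA4 itself (chromosome 7, 10931951 to 10940256, minus strand) had 147.75 and 149.68 TPM in the sgMETTL1.3 libraries, 166.1 and 159.76 TPM in the sgMETTL1.6 libraries and 133.07 and 133.87 TPM in the sgNS libraries, was above control in every guide library and rose, with a log2 change of 0.22 ± 0.03 (standard error), adjusted p = 5.3e-05.

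**Figure D4:**
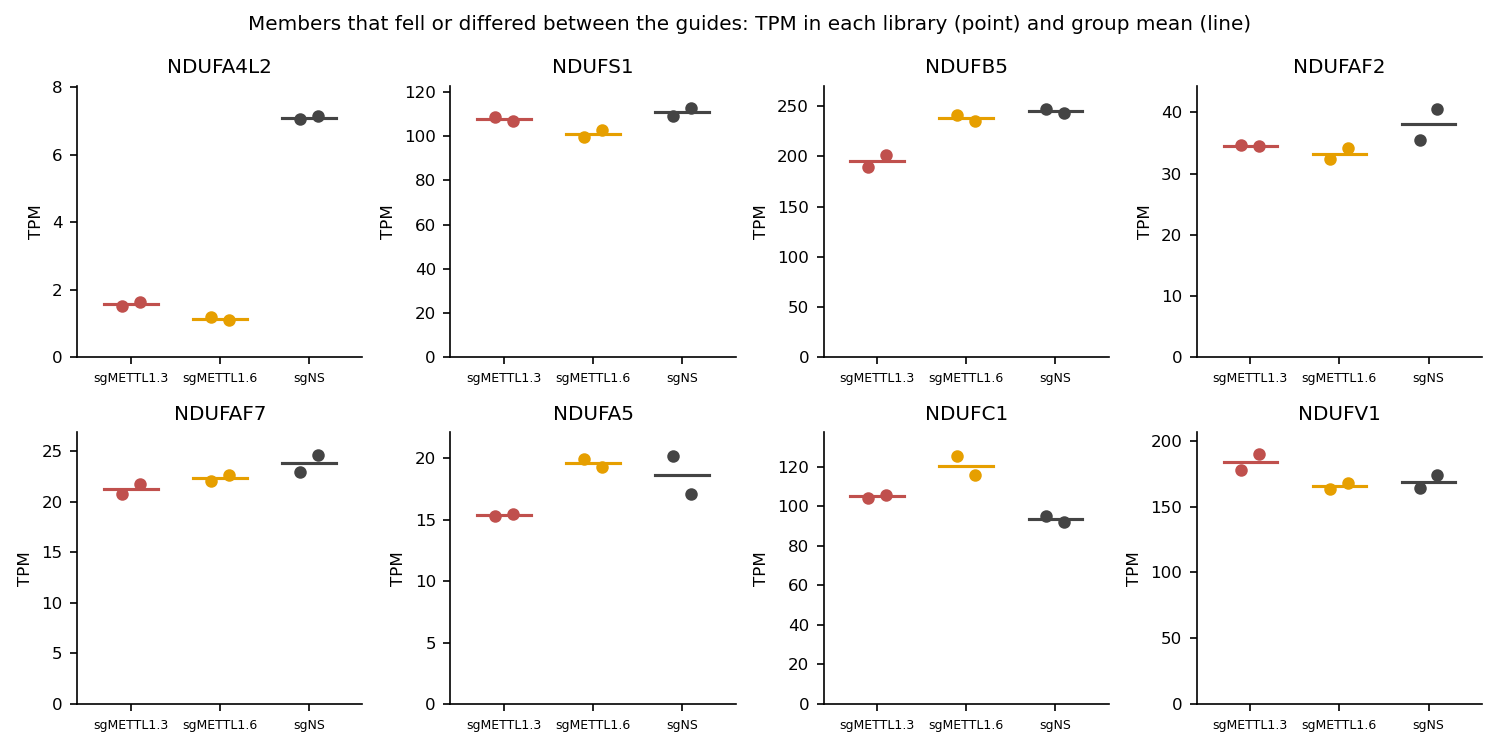
TPM in each library (points) and group mean (line) for 5 transcripts that fell over both guides (NDUFA4L2, NDUFS1, NDUFB5, NDUFAF2, NDUFAF7) and 3 that differed between the guides (NDUFA5, NDUFC1, NDUFV1), with sgMETTL1.3 and sgMETTL1.6 left of sgNS and each axis starting at 0. NDUFA4L2 lies between 1.1 and 1.65 TPM in the guide libraries, against 7.05 and 7.14 TPM in the controls, and NDUFB5 is low in the sgMETTL1.3 libraries, at 189.6 and 201.09 TPM.

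Of the 7 NDUFAF assembly factors, 3 were higher, 2 lower and 2 not called over both guides, with a median log2 change of 0.13. With so few members, these counts are near the shares of all genes tested, 32.6% higher and 26.8% lower. NDUFAF4 (chromosome 6, 96889313 to 96897881, minus strand), which pairs with NDUFAF3 early in the assembly of the Q module, had 35.53 and 37.19 TPM in the sgMETTL1.3 libraries, 37.04 and 38.26 TPM in the sgMETTL1.6 libraries and 25.85 and 26.58 TPM in the sgNS libraries. The control libraries lay well below all guide libraries, and the log2 change was 0.48 ± 0.04 (standard error), adjusted p = 8.7e-07. NDUFAF1 (chromosome 15, 41387349 to 41402519, minus strand), a factor of the membrane arm intermediate, had 36.68 and 33.56 TPM in the sgMETTL1.3 libraries, 37.14 and 36.07 TPM in the sgMETTL1.6 libraries and 26.92 and 25.85 TPM in the sgNS libraries, with a log2 change of 0.43 ± 0.05 (standard error), adjusted p = 5.9e-06. NDUFAF6, another factor of early assembly, had 18.57 and 17.14 TPM in the sgMETTL1.3 libraries, 18.28 and 19.3 TPM in the sgMETTL1.6 libraries and 15.58 and 13.52 TPM in the sgNS libraries, and its log2 change was 0.32 ± 0.06 (standard error), adjusted p = 0.00073.

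NDUFAF2 (chromosome 5, 60945129 to 61153037, plus strand), a paralog of the subunit NDUFA12 that acts late in assembly, had 34.6 and 34.49 TPM in the sgMETTL1.3 libraries, 32.39 and 34.15 TPM in the sgMETTL1.6 libraries and 35.53 and 40.62 TPM in the sgNS libraries. The controls differed from each other more than sgNS replicate 1 differed from the guides, and the log2 change was -0.16 ± 0.05 (standard error), adjusted p = 0.019. NDUFAF7 (chromosome 2, 37231631 to 37253403, plus strand), a methyltransferase of the mitochondrial matrix, had 20.76 and 21.72 TPM in the sgMETTL1.3 libraries, 22.04 and 22.64 TPM in the sgMETTL1.6 libraries and 22.98 and 24.66 TPM in the sgNS libraries, with a log2 change of -0.12 ± 0.05 (standard error), adjusted p = 0.046. Both calls were lost without sgNS replicate 2, at -0.07 for each (adjusted p = 0.38 for NDUFAF2 and 0.36 for NDUFAF7), and that of NDUFAF7 also without sgMETTL1.3 replicate 1 (-0.11, adjusted p = 0.12) or sgMETTL1.6 replicate 1 (-0.11, adjusted p = 0.08). With no filter on low values or no variance trend, neither passed (adjusted p = 0.053 to 0.083). With the guides apart, NDUFAF2 was lower with sgMETTL1.6 (-0.19, adjusted p = 0.021) and did not pass with sgMETTL1.3 (-0.13, adjusted p = 0.077). NDUFAF7 was lower with sgMETTL1.3 (-0.16, adjusted p = 0.029) and did not pass with sgMETTL1.6 (-0.09, adjusted p = 0.22).

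The other two factors did not pass over both guides. NDUFAF5 (chromosome 20, 13784950 to 13821582, plus strand), which hydroxylates NDUFS7, had 6.38 and 6.82 TPM in the sgMETTL1.3 libraries, 5.63 and 6.01 TPM in the sgMETTL1.6 libraries and 5.41 and 5.78 TPM in the sgNS libraries, with a log2 change of 0.13 ± 0.07 (standard error), adjusted p = 0.13. NDUFAF3 (chromosome 3, 49020459 to 49023495, plus strand) had 98.16 and 102.52 TPM in the sgMETTL1.3 libraries, 95.19 and 105.36 TPM in the sgMETTL1.6 libraries and 89.36 and 102.82 TPM in the sgNS libraries, where sgNS replicate 2 lay within the guide values, and its log2 change was 0.06 ± 0.05 (standard error), adjusted p = 0.33. Without sgNS replicate 2 it was 0.16 and passed (adjusted p = 0.033), and without sgNS replicate 1 it was -0.04.

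Each guide was also set against the same control libraries, which the comparisons therefore share. With sgMETTL1.3, 21 of 35 subunits rose and 3 fell, with a median log2 change of 0.15, beside 34.3% and 24.2% of all genes tested (58.5% in all). With sgMETTL1.6, 24 rose and 2 fell, with a median of 0.18, beside 25.7% and 25.3% of all genes (51% in all). The 2 that fell became 1 without sgNS replicate 2 or sgMETTL1.6 replicate 1. For the NDUFAF factors the counts were 4 higher and 1 lower with sgMETTL1.3 and 3 higher and 1 lower with sgMETTL1.6, and each lower count was 0 without sgNS replicate 2. No complex I transcript was called in opposite directions by the guides (0 of 45). The share of all genes called in opposite directions was not computed. Because the control libraries are shared, which favours calls in the same direction, this count does not measure how well the guides agree. In the direct comparison of sgMETTL1.6 with sgMETTL1.3, 7 subunits were higher, 1 was lower and 0 of 7 NDUFAF factors were called, beside 7.23% and 15.8% of all genes (23% in all). Without sgMETTL1.3 replicate 1 the count of higher subunits was 3. The count of lower subunits was 0 without sgMETTL1.3 replicate 2 or sgMETTL1.6 replicate 1, and 2 without sgMETTL1.6 replicate 2. The median of the subunits there was 0.05, and that of all genes was -0.05.

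NDUFB5 had the lowest adjusted p among subunits between the guides. Its log2 change was -0.33 with sgMETTL1.3 (adjusted p = 8.2e-06) and -0.04 with sgMETTL1.6 (adjusted p = 0.38), and the guides differed by 0.28 ± 0.04 (standard error), adjusted p = 0.00027. This difference kept its call under all 15 alternatives run. NDUFA5 (chromosome 7, 123536997 to 123558255, minus strand), a Q module accessory subunit, had 15.33 and 15.47 TPM in the sgMETTL1.3 libraries, 19.95 and 19.31 TPM in the sgMETTL1.6 libraries and 20.22 and 17.06 TPM in the sgNS libraries. Its sgMETTL1.6 value was above that of sgMETTL1.3 by a log2 difference of 0.33 ± 0.07 (standard error), adjusted p = 0.0069, while the control libraries lay 17% apart. It fell with sgMETTL1.3 (-0.26, adjusted p = 0.0081) and was at 0.07 with sgMETTL1.6 (adjusted p = 0.4).

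NDUFC1 (chromosome 4, 139266880 to 139302551, minus strand), in the proximal arm, had 104.43 and 105.64 TPM in the sgMETTL1.3 libraries, 125.55 and 115.71 TPM in the sgMETTL1.6 libraries and 94.9 and 92.2 TPM in the sgNS libraries, and the guides differed by 0.20 ± 0.04 (standard error), adjusted p = 0.008, with both above control. NDUFA1 (chromosome X, 119871487 to 119876662, plus strand), an accessory subunit next to the membrane core, had 478.61 and 500.78 TPM in the sgMETTL1.3 libraries, 552.77 and 532.68 TPM in the sgMETTL1.6 libraries and 493.25 and 482.89 TPM in the sgNS libraries, with a guide difference of 0.15 ± 0.03 (standard error), adjusted p = 0.008. Its sgMETTL1.3 values lay around the control values and its sgMETTL1.6 values above them. NDUFA12 (chromosome 12, 94897055 to 95003770, minus strand), of the N module, had 121.86 and 122.5 TPM in the sgMETTL1.3 libraries, 137.07 and 133.9 TPM in the sgMETTL1.6 libraries and 113.88 and 106.84 TPM in the sgNS libraries, with a guide difference of 0.15 ± 0.04 (standard error), adjusted p = 0.021.

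NDUFV1 (chromosome 11, 67605653 to 67612554, plus strand), the flavin-binding core subunit that takes electrons from NADH, was the subunit that was lower with sgMETTL1.6 than with sgMETTL1.3. It had 178.16 and 189.72 TPM in the sgMETTL1.3 libraries, 163.29 and 167.97 TPM in the sgMETTL1.6 libraries and 164.02 and 174.1 TPM in the sgNS libraries, and the guide difference was -0.15 ± 0.04 (standard error), adjusted p = 0.024. Leaving out 1 library ended the guide difference of NDUFC1 (sgMETTL1.3 replicate 1 or sgMETTL1.6 replicate 1, adjusted p = 0.051 and 0.066), NDUFA1 (the same libraries, 0.085 and 0.052), NDUFV1 (sgMETTL1.3 replicate 2 or sgMETTL1.6 replicate 1, 0.19 and 0.097) and NDUFA12 (either sgMETTL1.3 library or sgMETTL1.6 replicate 1, 0.082 to 0.096). With no filter on low values, the guide differences of these 4 and of NDUFA5 did not pass (adjusted p = 0.058 to 0.1).

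Assembly factors without the NDUFAF prefix were mostly higher, with 8 of 13 that rose, 0 that fell and a median log2 change of 0.24 over both guides, beside 32.6% and 26.8% of all genes tested. The highest were NDUFAF8, listed in the table under the older symbol C17orf89, at 0.49 (adjusted p = 7e-08), ECSIT at 0.48 and TMEM126A at 0.44, and the lowest of those called were TIMMDC1 at 0.17, DMAC2 at 0.24 and DMAC1 at 0.25. ECSIT, a partner of NDUFAF1 in the membrane arm intermediate, had 23.93 and 24.77 TPM in the sgMETTL1.3 libraries, 19.44 and 20.24 TPM in the sgMETTL1.6 libraries and 15.24 and 15.78 TPM in the sgNS libraries. TMEM126B, another partner there, was chosen after its values were seen and had 72.6 and 76.38 TPM in the sgMETTL1.3 libraries, 107.75 and 101.14 TPM in the sgMETTL1.6 libraries and 90.66 and 82.35 TPM in the sgNS libraries. It fell with sgMETTL1.3 (-0.21, adjusted p = 0.0034), rose with sgMETTL1.6 (0.27, adjusted p = 0.0008), and the guides differed by 0.48 (adjusted p = 5.8e-05).

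Of the import and insertion proteins, CHCHD4, the oxidoreductase that imports the CHCH subunits, rose by a log2 change of 0.29 (adjusted p = 0.00024) and its partner AIFM1 by 0.30 (adjusted p = 6.8e-06), while OXA1L, the inner membrane insertase, was lower at -0.24 (adjusted p = 2e-05). CHCHD4 had 58.58 and 63.21 TPM in the sgMETTL1.3 libraries, 68 and 60.36 TPM in the sgMETTL1.6 libraries and 50.75 and 51.05 TPM in the sgNS libraries, and OXA1L had 166.46 and 168.85 TPM in the sgMETTL1.3 libraries, 160.65 and 165.23 TPM in the sgMETTL1.6 libraries and 193.3 and 196.23 TPM in the sgNS libraries. All guide libraries were above both controls for CHCHD4 and AIFM1 and below both for OXA1L. Over all genes tested, 32.9% lay above and 27.3% below in this way.

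Of 11 regulators of mitochondrial biogenesis, 4 rose, 3 fell and 4 did not pass, with a median of 0.04, and these counts are near the 32.6% and 26.8% of all genes tested. The coactivators PPARGC1B at 0.38 and PPRC1 at 0.26 and the mitochondrial RNA polymerase POLRMT at 0.29 rose. TFAM, which packages mitochondrial DNA, at -0.18, and the ETS subunits GABPA at -0.17 and GABPB1 at -0.12 fell (adjusted p = 0.0066, 0.018 and 0.029), but all 3 calls were lost without sgNS replicate 1 and those of GABPA and GABPB1 without sgMETTL1.3 replicate 2, with GABPB1 also without sgMETTL1.6 replicate 2. NRF1 itself did not pass, at 0.04.

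Most transcripts of the other respiratory complexes and of the mitochondrial ribosome rose over both guides as well. Among subunits of complexes II to V, 32 of 40 tested rose and 4 fell, with a median log2 change of 0.18. Among mitochondrial ribosomal proteins 55 of 74 rose and 6 fell, with a median of 0.21. The shares over all genes tested were 32.6% higher and 26.8% lower, with a median of 0.02. Whether complex I moved more or less than these lists was not tested.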

How the data were processed

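The authors deposited TPM in 1 table, with a column for each of 6 libraries. RSEM 1.2.31 and GRCh38 were used, per the submitters' processing notes; which aligner and annotation served is not given in the sources used here. RSEM divides reads between similar transcripts by a model, and because TPM adds up to a fixed total, abundant genes that change move all the others. Column names gave the samples, and 0 columns were left unmapped.

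Values were analysed as log2(TPM + 1) with limma 3.58.1 in R 4.3.3. Genes averaging under 1 TPM were dropped, which left 10911. All 3 groups entered 1 model with a variance trend, and adjusted p-values (Benjamini-Hochberg over all genes tested) under 0.05 were called. Fold changes are on this scale and are too small for low genes. The members and gene lists were chosen with earlier results of these data known. Values in each library are given for the 8 highest and 5 lowest changes among called transcripts with no overlap between guide and control libraries, every NDUFAF factor, the 6 widest guide differences among called subunits, NDUFA4 and NDUFA4L2; of other lists the 3 highest and 3 lowest calls are named. A gene that this rule would name is not reported here. Positions are from GENCODE 29 on GRCh38. The model was run on simulated data with independent libraries. Their noise was drawn from the model's own fit, and far fewer genes were changed than were called here. That run checks the code only and does not bear on the calls given. Alternatives were other pseudocounts, filters and scalings, no variance trend, the replicate number as a block, and leaving out each library.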

Additional observations from a re-analysis of the deposited data

Results flagged for a closer look

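A total of 9 transcripts differed between the guides in the direct comparison of sgMETTL1.6 with sgMETTL1.3, by limma with adjusted p-values over all genes tested. The log2 difference was 0.331 for NDUFA5 (adjusted p = 0.0069), 0.284 for NDUFB5 (adjusted p = 0.00027), 0.197 for NDUFC1 (adjusted p = 0.008), 0.148 for NDUFA1 (adjusted p = 0.008) and 0.148 for NDUFA12 (adjusted p = 0.021). It was 0.147 for NDUFB8 (adjusted p = 0.031), 0.131 for NDUFA4 (adjusted p = 0.022) and 0.122 for NDUFB4 (adjusted p = 0.032). NDUFV1 had a difference of -0.150 (adjusted p = 0.024), lower with sgMETTL1.6.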

How the results depend on the processing

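The count of subunits that rose over both guides, 21, stayed within 1.5 times under every alternative run, and was 19 to 22 when a library was left out. Subunits that fell with sgMETTL1.6 numbered 2, and 1 to 2 without a library. The median log2 change of the subunits, 0.17, was 0.148 with median-ratio scaling and 0.146 once ribosomal protein genes were removed, and 0.156 to 0.190 without a library. These scalings gave a median of all genes of -0.001 and -0.004, against 0.02. Calls over all genes were 3150 higher and 3218 lower (median-ratio) and 3087 and 3249 (without ribosomal protein genes), against 3556 and 2928. Subunits that rose with sgMETTL1.3 numbered 16 under each of these scalings, against 21, and those that fell 4, against 3. With sgMETTL1.6, 24 (median-ratio) and 23 (without ribosomal protein genes) rose, against 24. NDUFAF factors that fell, 2, were 0 with no filter on low values, 0 with no variance trend and 0 to 2 without a library. Between the guides, the 7 higher subunits became 1 with no filter, 12 with median-ratio scaling, 2 with no trend, 11 with the replicate block and 3 to 8 without a library. The 1 lower subunit became 0 with no filter, median-ratio scaling, quantile normalization, no ribosomal protein genes or no trend, 3 with the replicate block and 0 to 2 without a library. The cause of these shifts was not tested.

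Changes near 0 reversed. Without sgNS replicate 1 these were NDUFA11 (-0.009, and up to 0.092 over the libraries left out), NDUFA5 (0.026, down to -0.206), NDUFAF3 (-0.036, up to 0.164), NDUFS4 (0.044, down to -0.092), NDUFS7 (-0.025, up to 0.078) and NRF1 (-0.027, up to 0.1). Without sgNS replicate 2 they were NDUFB1 (-0.001, up to 0.089), ACAD9 (0.042, down to -0.104) and TMEM126B (-0.040, up to 0.098). NDUFA13 reversed without sgMETTL1.3 replicate 1 (0.006) or sgMETTL1.6 replicate 1 (0.017, down to -0.051), and NDUFS7 without sgMETTL1.3 replicate 2 (-0.008) or sgMETTL1.6 replicate 2 (-0.012). Quantile normalization gave NDUFS7 -0.004, and removing ribosomal protein genes gave NDUFS7 -0.004 and TMEM126B -0.001. Nothing in the labels pairs samples by replicate number, and samples were treated as unpaired, since not every correlation of deviations between libraries of the same number was over 0.1, at -0.00501 (sgMETTL1.3 and sgNS), 0.207 (sgMETTL1.6 and sgNS) and 0.145 (the guides). With the replicate block, 3825 genes were higher and 3151 lower, and NDUFB11 (adjusted p = 0.022) and NDUFB8 (adjusted p = 0.035) passed over both guides. TPM keeps no depth, so no counting error can be given. NDUFA4L2 has no value with the filter of a mean of at least 5 TPM, which it did not reach.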
